A study of Rattus norvegicus with 10 samples.

Results

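Axon guidance ligands and receptors, the cues that steer growing axons and the surface proteins that read them, were followed in rat hippocampus 3 months after traumatic brain injury (TBI). Genes were taken by symbol from the semaphorins of classes 3 to 7, plexins, neuropilins, ephrins, Eph receptors, Slits, Robos, netrins and netrin receptors, and a gene was a member if its RefSeq RNA record with the most counts held at least 44 reads over the 10 rats. Of 69 such symbols in the reference table, 56 matched a row of the count table, and 55 were members, 31 ligands and 24 receptors, among 12284 symbols and 22431 rows tested. Sema3a, with 20 reads in all, did not reach the minimum. The 13 others, Efna3, Epha6, Epha8, Epha10, Ephb3, Plxna4, Plxnb1, Plxnc1, Plxnd1, Robo3, Robo4, Sema3f and Sema5b, matched no row by accession and were not analysed here. Unc50 and Unc5cl, whose symbols share the first letters of the Unc5 receptors, were not counted as netrin receptors.

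The animals were adult male Sprague-Dawley rats, 5 with TBI and 5 sham-operated. TBI was a pressure pulse of 3.32 atm delivered as fluid onto the intact dura (lateral fluid percussion), and sham rats had the same anaesthesia and opening of the skull over the left parietal lobe without the pulse. Poly-A RNA came from the left hippocampus, from a piece holding CA3 and dentate gyrus (the labels give dorsal hippocampus), and each library is 1 rat, none pooled. In such tissue fewer cells of a type and less RNA per cell cannot be told apart.

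In development these families guide axons by attraction and repulsion. Semaphorins signal through plexins, with neuropilins as co-receptors for most of class 3. Ephrins and Eph receptors signal in both directions between touching cells, Slits repel through Robos, and netrins attract through Dcc and repel through Unc5 receptors. In the adult hippocampus many of them stay expressed and act at synapses and dendritic spines, and class 3 semaphorins and Eph receptors have been studied for their part in the sprouting of granule cell axons, the mossy fibres.

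Libraries held 23425817 to 31671838 counts on RNA records. Of these, 12.5% to 26.2% fell on ribosomal RNA in 8 rats, but 59.0% in the sham rat numbered 4 and 58.5% in that numbered 5, with a mean of 38.7% ± 18.3 (SD, n = 5) in sham and 19.7% ± 5.23 (SD, n = 5) in TBI (two-sided exact permutation p = 0.0238). No batch is given in the labels. Markers of the labelled tissue were present: granule cell genes (3 of 5 listed were testable) summed to 51.0 to 181 CPM (counts scaled to a common library size) in sham and 68.7 to 174 CPM in TBI, and CA3 genes (2 of 4) to 180 to 256 and 192 to 262 CPM. Sham replicate 1 had the lowest granule cell sum of all rats. The CA1 sum was 67.9 to 146 CPM in sham and 48.0 to 502 CPM in TBI, with TBI replicate 2 the highest. General neuronal markers summed to 1501 to 1741 CPM and 1339 to 1660 CPM, oligodendrocyte markers to 2555 to 3671 and 2628 to 3507 CPM, their precursors to 84.9 to 104 and 91.8 to 116 CPM, microglia to 109 to 177 and 131 to 194 CPM, vessels to 71.5 to 92.5 and 79.8 to 95.1 CPM, and thalamic markers to at most 13.2 CPM in both groups. These libraries are kept in every comparison, and results that rest on them are also given without them.

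Across the members, injury was accompanied by few and small differences. In the quasi-likelihood test of edgeR fitted over all 22431 rows, 0 of the 55 members passed a Benjamini-Hochberg adjusted p of 0.05, as did 0% of all rows, and the smallest adjusted p among members was 0.487. DESeq2 and limma also gave 0 members. An unadjusted p under 0.05 was reached by 7 members (12.7%) and by 7.89% of all rows. Higher in TBI were Sema3b, Plxnb2 and Ephb1 (5.45% of members, against 4.89% of rows), and lower were Sema4g, Dcc, Unc5d and Unc5c (7.27%, against 3.00% of rows). At the stricter p of 0.001 used in the study, 0 members and 0.196% of rows were called. In the study's own edgeR list for this model, Sema3b (higher) and Unc5d (lower) did pass that p. Sema3b also had an adjusted p under 0.05 there, and Unc5d did not. The text of the study gives fewer control rats for this profiling than the labels do, so its groups may not be the ones compared here. It describes a negative binomial test in edgeR and does not name the quasi-likelihood test used here. In these data the exact test of edgeR gave an unadjusted p of 0.00229 for Sema3b and 0.00704 for Unc5d. Without sham replicates 4 and 5 the quasi-likelihood test gave 0.0715 and 0.113. The source of the difference from the study was not tested. The 5 sham and 5 TBI rats did not overlap in 2 members, Ephb1 and Dcc (3.64%), against 0.923% of rows. The 7 genes are therefore candidates only. By role, 2 of 31 ligands and 5 of 24 receptors were among them, a difference that was not tested.

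**Figure D1:**
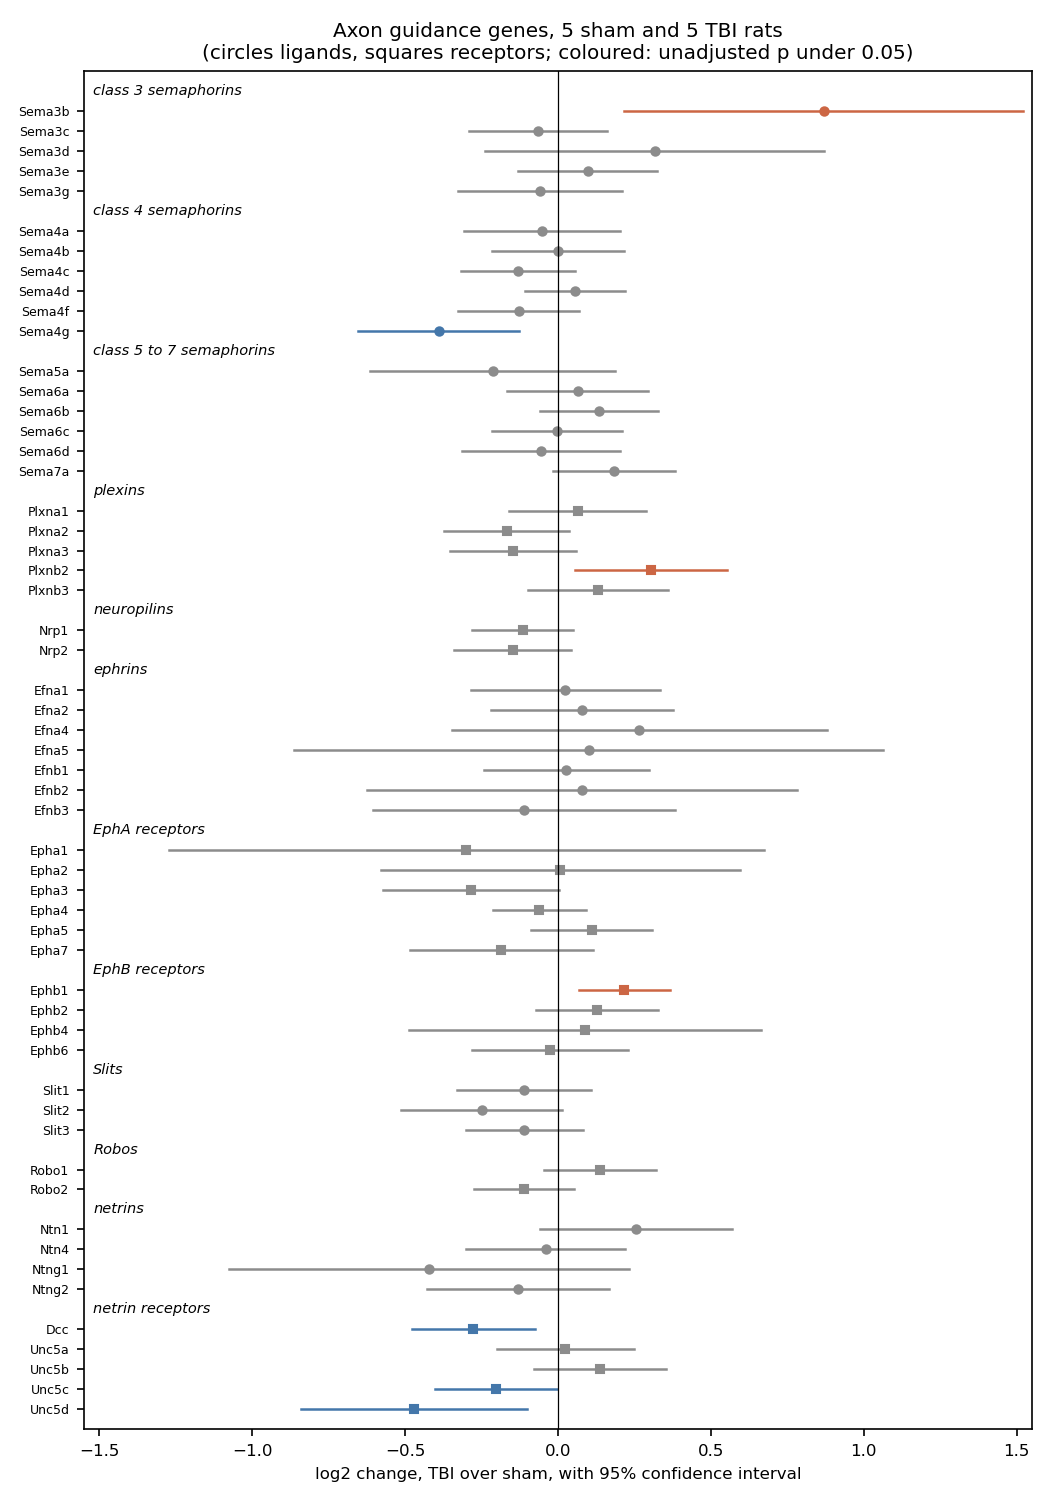
Log2 change of TBI over sham (x axis) with its 95% confidence interval for each of the 55 members, grouped by family on the y axis, from 5 sham and 5 TBI rats. Circles are ligands, squares are receptors, and colour marks an unadjusted p under 0.05. The 7 coloured genes lie between -0.47 (Unc5d) and 0.87 (Sema3b), and 3 of the 4 lower ones are netrin receptors.

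The median log2 change of the members was -0.03, beside -0.01 over all rows, with 25 members higher and 30 lower. Of the 40 members with at least 1000 reads in all and a p of at least 0.05, the log2 changes lay between -0.42 and 0.18, and 35 had an interval wholly within 0.5 of no change. The spread between rats was similar in the groups: over the 47 members with at least 1000 reads the median coefficient of variation was 12.3% in sham and 12.5% in TBI. Scaling by total counts, which treats ribosomal RNA as part of the library size, raised the log2 change of all rows by a median of 0.51. On that scale all 7 genes had positive log2 changes, and relative to the median of all rows their directions were those given here.

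The 2 members without overlap between groups, and the called plexin as the GC-rich contrast, are shown with their promoter windows, 250 bases before to 50 after the start of transcription, from RefSeq (GRCr8, minus strand). Capitals mark matches, on either strand, to the GC box GGGCGG or the CCAAT box CCAAT, and the matches do not overlap each other.
Ephb1, chr8:111823710-111824009: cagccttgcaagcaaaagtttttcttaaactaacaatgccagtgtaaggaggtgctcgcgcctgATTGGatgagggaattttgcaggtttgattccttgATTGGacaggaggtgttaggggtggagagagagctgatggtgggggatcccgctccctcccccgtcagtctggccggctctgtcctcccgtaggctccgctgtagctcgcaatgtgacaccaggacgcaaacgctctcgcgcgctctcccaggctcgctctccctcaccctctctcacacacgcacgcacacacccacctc
Dcc, chr18:68247625-68247924: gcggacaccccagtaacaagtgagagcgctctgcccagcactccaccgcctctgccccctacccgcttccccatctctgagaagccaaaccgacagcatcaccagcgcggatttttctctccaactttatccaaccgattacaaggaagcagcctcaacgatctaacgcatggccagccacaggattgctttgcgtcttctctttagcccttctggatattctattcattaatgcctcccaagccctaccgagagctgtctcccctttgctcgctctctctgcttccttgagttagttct
Plxnb2, chr7:122137899-122138198: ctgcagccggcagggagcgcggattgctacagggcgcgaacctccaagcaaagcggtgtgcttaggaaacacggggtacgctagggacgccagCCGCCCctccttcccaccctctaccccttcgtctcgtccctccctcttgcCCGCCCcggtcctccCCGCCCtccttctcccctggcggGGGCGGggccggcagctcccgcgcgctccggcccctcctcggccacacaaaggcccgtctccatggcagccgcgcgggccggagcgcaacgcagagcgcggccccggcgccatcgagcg

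The Plxnb2 window held 4 GC boxes and 36 CpG pairs, the Ephb1 window 2 CCAAT boxes and 16 CpG pairs, and the Dcc window neither box and 13 CpG pairs. Of all 33469 promoters of the table, 33.1% held a GC box and 37.5% a CCAAT box, and of the 44 windows of 43 members 47.7% and 38.6% did. A TATA box TATAAA was in 14.2% of all promoters and in 0 of these 44 windows. Sema3b, Sema4g, Unc5c and Unc5d had no entry. The members' windows had a median of 16 CpG pairs, against 7 over all promoters. These matches describe letters and not bound sites.

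Netrin receptors held most of the lower candidates. Dcc, the receptor through which netrin attracts axons, was at 27.0, 26.4, 24.8, 24.5 and 25.1 CPM in sham replicates 1 to 5, and at 24.2, 22.7, 20.2, 22.3 and 16.2 CPM in TBI replicates 1 to 5. Each TBI rat lay below each sham rat, although TBI replicate 1 was close to the lowest sham rat. The means were 25.6 CPM ± 1.08 (SD, n = 5) in sham and 21.1 CPM ± 3.09 (SD, n = 5) in TBI. The log2 change was -0.28 with a standard error of 0.0960, an unadjusted p of 0.00967 and, after adjustment, 0.507 (edgeR). Dropping any 1 of the 10 rats, or sham replicates 4 and 5 together, left the unadjusted p under 0.05.

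Unc5d, a receptor of the Unc5 family, whose members turn netrin into a repellent, was at 11.5, 20.9, 20.1, 20.8 and 24.1 CPM in sham replicates 1 to 5. In TBI replicates 1 to 5 it was at 15.5, 14.1, 15.6, 14.6 and 10.1 CPM. The groups overlapped through sham replicate 1, and the other 4 sham rats lay above each TBI rat. The log2 change was -0.47 with a standard error of 0.172 (unadjusted p = 0.0165, adjusted p = 0.548, edgeR). Without sham replicate 1 it was -0.62 (unadjusted p = 3.71e-05, adjusted p = 0.313), whereas without sham replicates 4 and 5 it was -0.32 (unadjusted p = 0.113) and with the ribosomal RNA share as a covariate -0.24 (unadjusted p = 0.213). The study lists this gene for this model, so its direction is not independent evidence.

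Unc5c, another repulsive netrin receptor, was at 40.7, 38.1, 30.3, 35.9 and 31.8 CPM in sham and at 35.8, 27.4, 30.1, 32.0 and 28.5 CPM in TBI replicates 1 to 5. The groups overlapped. Its log2 change was -0.20 with a standard error of 0.0949 and an unadjusted p of 0.0469 (edgeR). This p stayed under 0.05 on dropping 3 of the 10 rats in turn but not the other 7. Without sham replicates 4 and 5 the log2 change was -0.24 (unadjusted p = 0.0519, edgeR). With the ribosomal RNA share as a covariate it was -0.22 (unadjusted p = 0.0917, edgeR). The remaining receptors of the family did not pass, with log2 changes of 0.02 for Unc5a (95% interval -0.20 to 0.25) and 0.14 for Unc5b (-0.08 to 0.35). In this family, singled out after its values were seen, 3 of 5 members were lower at an unadjusted p under 0.05, against 3.00% of all rows, with a median log2 change of -0.20.

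Marker genes of cell types were read beside these receptors, and the smallest adjusted p in any marker list was 0.477 (edgeR). The GABAergic marker sum (Gad1, Gad2, Slc32a1, Sst, Pvalb, Vip and Lhx6) was 180 to 255 CPM in sham and 132 to 211 CPM in TBI. At an unadjusted p under 0.05, 3 of these 7 genes were lower, against 3.00% of all rows. Other marker lists also held genes past that p. Higher at that p were 2 of 5 CA1, 2 of 7 astrocyte and 2 of 6 meningeal markers, against 4.89% of all rows. So were 1 of 3 ependymal, 1 of 3 thalamic, 1 of 4 oligodendrocyte precursor, 1 of 6 microglial and 1 of 6 choroid plexus markers. All 5 CA1 markers had positive log2 changes, with a median of 1.40. Of 3 granule cell markers 0 were called, and likewise 0 of the general neuronal, CA3, oligodendrocyte and vessel markers. The part of any cell type in the receptor values was not tested.

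**Figure D2:**
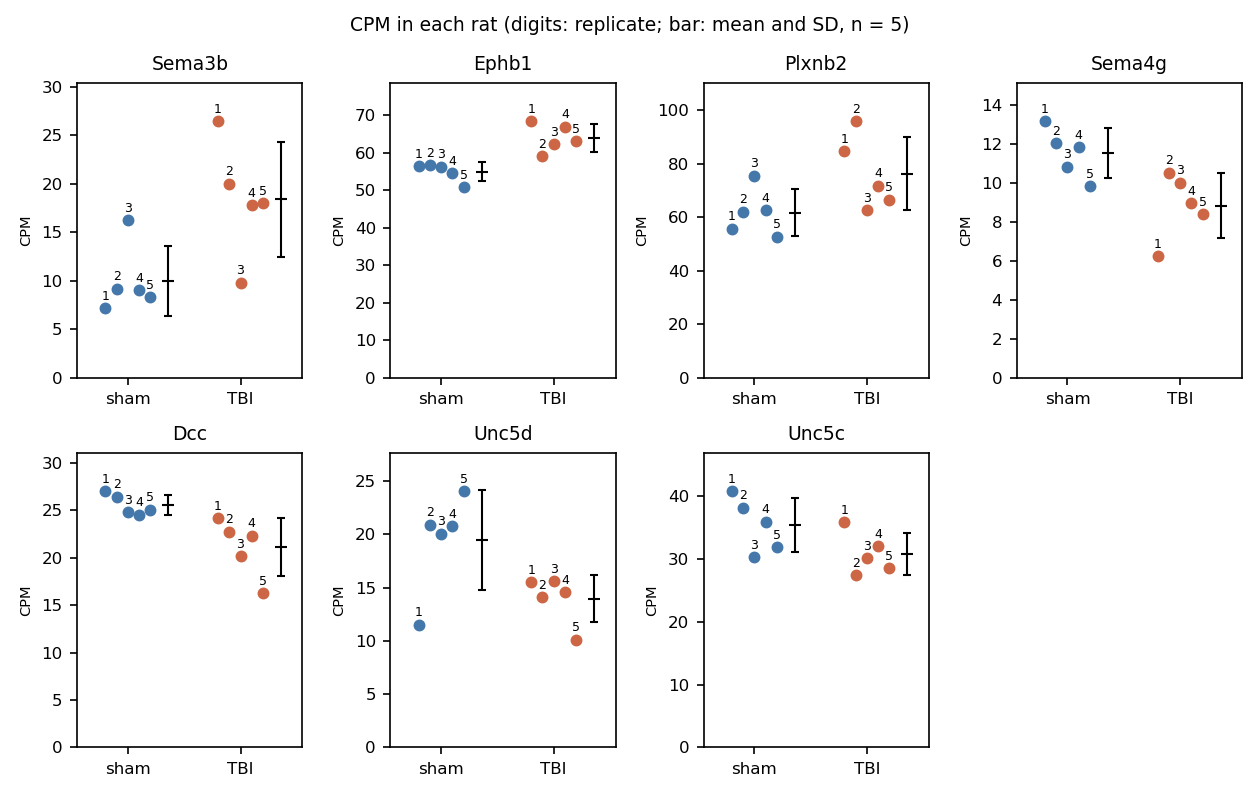
CPM (y axis, from 0) of the 7 members with an unadjusted p under 0.05 in each sham and TBI rat, with the digit of the replicate at each point and the mean and SD of 5 rats as a bar. Ephb1 and Dcc have no overlap between groups, and in Sema3b and Plxnb2 sham replicate 3 and TBI replicate 3 lie toward the other group.

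Netrins themselves were not called. Ntn1, the secreted attractant that Dcc binds, was at 2.68, 1.80, 2.53, 2.31 and 3.19 CPM in sham and at 3.31, 2.90, 2.76, 3.10 and 2.77 CPM in TBI replicates 1 to 5, a log2 change of 0.26 with a 95% interval of -0.06 to 0.57. Ntn4 had a log2 change of -0.04 (-0.30 to 0.22). The netrin-G genes encode membrane-anchored relatives that do not bind Dcc but pair with the NGL adhesion proteins at synapses. Ntng2 had a log2 change of -0.13 (-0.43 to 0.17). Ntng1 had -0.42, with a wide interval of -1.08 to 0.23. It was at 6.46 CPM in sham replicate 1, below every TBI rat, and at 15.2 to 22.9 CPM in the other sham rats, all above the 10.2 to 14.3 CPM of the TBI rats.

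Sema3b had the largest log2 change of the members. It encodes a secreted class 3 semaphorin that acts through neuropilins. It was at 7.18, 9.16, 16.2, 9.04 and 8.31 CPM in sham replicates 1 to 5 and at 26.4, 20.0, 9.80, 17.8 and 18.0 CPM in TBI replicates 1 to 5. Of the TBI rats 4 lay above each sham rat, and TBI replicate 3 lay among the sham rats and below sham replicate 3. The means of 9.99 CPM ± 3.59 (SD, n = 5) and 18.4 CPM ± 5.95 (SD, n = 5) went with a fitted level 1.83-fold higher in TBI. The log2 change was 0.87 with a standard error of 0.291, an unadjusted p of 0.0144 and, after adjustment, 0.545 (edgeR). In edgeR it was 1.13 without sham replicate 3 (unadjusted p = 0.00072, adjusted p = 0.105) and 0.76 without sham replicates 4 and 5 (unadjusted p = 0.0715). With the ribosomal RNA share as a covariate it was 0.78 (unadjusted p = 0.0733, edgeR). This gene is also on the study's list for this model, so its direction is not independent evidence.

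The other secreted semaphorins did not pass the test. Sema3d had a log2 change of 0.32 with an interval of -0.24 to 0.87 on 522 reads in all. Sema3e, the ligand of plexin D1, had 0.10 (-0.13 to 0.33). Sema3c and Sema3g had -0.07 (-0.29 to 0.16) and -0.06 (-0.33 to 0.21).

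Plxnb2, a receptor for class 4 semaphorins, was at 55.8, 62.1, 75.6, 62.7 and 52.7 CPM in sham replicates 1 to 5 and at 84.8, 95.9, 62.8, 71.9 and 66.6 CPM in TBI replicates 1 to 5. As with Sema3b, the highest sham rat was replicate 3 and the lowest TBI rat was replicate 3. The log2 change was 0.30 with a standard error of 0.118 (unadjusted p = 0.0194, edgeR). On dropping each rat in turn its unadjusted p stayed under 0.05 for 6 of 10 rats, and was highest without TBI replicate 2 (log2 change 0.21, unadjusted p = 0.0701). Without sham replicates 4 and 5 the log2 change was 0.25 (unadjusted p = 0.0933), and with the ribosomal covariate 0.24 (unadjusted p = 0.136, edgeR).

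Astrocyte, ependymal and microglial markers had the same pair of rats at the edge of their groups, while oligodendrocyte and precursor markers did not. The microglial sum was 177 CPM in sham replicate 3, the highest sham rat, and 131 CPM in TBI replicate 3, the lowest TBI rat. GABAergic markers had this pair the other way round. Their sum was lowest among sham rats in replicate 3 (180 CPM) and highest among TBI rats in replicate 3 (211 CPM). The astrocyte sum (7 genes, with Gfap the most abundant) was 1660 to 2502 CPM in sham, highest in replicate 3, and 1825 to 3377 CPM in TBI, lowest in replicate 3. The ependymal sum (3 genes) was 8.24 to 16.8 CPM and 15.8 to 25.7 CPM, again with sham replicate 3 highest and TBI replicate 3 lowest. Meningeal genes (6 of 6 testable) summed to 6.00 to 18.3 CPM in sham and 9.99 to 18.6 CPM in TBI, and choroid plexus genes (6 of 6) to 6.99 to 36.4 and 12.5 to 36.8 CPM. No marker was at 0 over all rats. Their part in the Sema3b and Plxnb2 values was not tested.

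Of the other plexins, which carry the signal of semaphorins to the cytoskeleton, Plxna2 was at 80.6, 95.9, 79.8, 79.7 and 95.8 CPM in sham and at 84.5, 83.4, 84.3, 71.6 and 60.5 CPM in TBI replicates 1 to 5. Its log2 change of -0.17 had an interval of -0.37 to 0.04. Plxna3 had -0.15 (-0.35 to 0.06), Plxna1 0.06 (-0.16 to 0.29) and Plxnb3, a plexin of oligodendrocytes, 0.13 (-0.10 to 0.36). The neuropilins Nrp1 and Nrp2 had log2 changes of -0.11 (-0.28 to 0.05) and -0.15 (-0.34 to 0.04). Without sham replicates 4 and 5, Nrp2 had -0.25 (unadjusted p = 0.0197).

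Among membrane-bound semaphorins the gene with the smallest p was Sema4g. It was at 13.1, 12.0, 10.8, 11.8 and 9.81 CPM in sham replicates 1 to 5 and at 6.23, 10.5, 10.0, 8.95 and 8.39 CPM in TBI replicates 1 to 5. All 5 TBI rats lay below the sham median, and the groups overlapped only between sham replicate 5 and TBI replicates 2 and 3. The log2 change was -0.39 with a standard error of 0.126, an unadjusted p of 0.00603 and, after adjustment, 0.487 (edgeR). Dropping any 1 rat kept the unadjusted p under 0.05. Sema4g had a log2 change of -0.44 without sham replicates 4 and 5 (unadjusted p = 0.00865) and -0.50 with the ribosomal covariate (unadjusted p = 0.00543).

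The other class 4 genes ranged from -0.13 (Sema4c and Sema4f) to 0.06 (Sema4d), with -0.05 for Sema4a and -0.00 for Sema4b. Sema7a, a GPI-anchored semaphorin that binds integrins and plexin C1, was at 168, 150, 201, 172 and 198 CPM in sham and at 205, 214, 197, 167 and 227 CPM in TBI replicates 1 to 5, a log2 change of 0.18 with an interval of -0.02 to 0.38. Sema6b and Sema6a, transmembrane ligands of the A plexins, had 0.14 (-0.06 to 0.33) and 0.07 (-0.17 to 0.30). Sema6c, Sema6d and Sema5a had -0.00, -0.06 and -0.21, none with an interval apart from 0.

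Ephb1, an Eph receptor that binds B ephrins, differed little but evenly. It was at 56.4, 56.7, 56.2, 54.5 and 50.8 CPM in sham replicates 1 to 5 and at 68.3, 59.0, 62.3, 66.9 and 63.1 CPM in TBI replicates 1 to 5. Every TBI rat lay above every sham rat. The means were 54.9 CPM ± 2.46 (SD, n = 5) and 63.9 CPM ± 3.73 (SD, n = 5), a 1.16-fold difference. The log2 change was 0.22 with a standard error of 0.0712, the smallest of all members, an unadjusted p of 0.00673 and, after adjustment, 0.487 (edgeR). Dropping any 1 rat kept the unadjusted p under 0.05. For Ephb1 the log2 change was 0.18 without sham replicates 4 and 5 (unadjusted p = 0.0468) and also 0.18 with the ribosomal covariate (unadjusted p = 0.0666).

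The other EphB receptors were not called. Ephb2, which acts with NMDA receptors at synapses, had a log2 change of 0.13 (-0.07 to 0.33), Ephb4, a vascular receptor, 0.09 (-0.49 to 0.66) and Ephb6, which lacks kinase activity, -0.03 (-0.28 to 0.23). Of 6 EphA receptors 0 had an unadjusted p under 0.05. Epha3 came nearest, at 4.25, 4.42, 3.51, 3.47 and 5.31 CPM in sham and at 3.57, 3.49, 3.96, 3.26 and 2.87 CPM in TBI replicates 1 to 5, with a log2 change of -0.29 (-0.57 to 0.00). Epha4, the member with the most reads (78934), had -0.06 with an interval of -0.21 to 0.09. Epha5 had 2 rows, with log2 changes of 0.11 and 0.10, and the 2 records may share reads. Epha7 had -0.18 (-0.48 to 0.11), Epha1 -0.30 (-1.27 to 0.67) and Epha2 0.01 (-0.58 to 0.59).

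Ephrins, the ligands of these receptors, had 0 of 7 members called, with a median log2 change of 0.08. Efnb3 had -0.11 (-0.61 to 0.38), Efnb1 0.03 (-0.24 to 0.30), Efna1 0.02 (-0.29 to 0.33) and Efna2 0.08 (-0.22 to 0.38). Efna4, Efna5 and Efnb2 had 0.27, 0.10 and 0.08 with intervals that reached beyond 0.7. They belong to 6 members with 61 to 278 reads over the 10 rats, together with Epha1, Epha2 and Ephb4, in which a rat held between 1 and 58 reads and standard errors were 0.274 to 0.464. In these 6 genes only large differences could have been detected at this depth.

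Slits and Robos, ligands and receptors of a repulsive system, had 0 of 5 members called. Slit2 was at 60.9, 47.3, 42.4, 42.9 and 37.7 CPM in sham and at 40.1, 31.3, 38.0, 47.8 and 37.8 CPM in TBI replicates 1 to 5, a log2 change of -0.25 (-0.51 to 0.01). Without sham replicates 4 and 5 it was -0.36 (unadjusted p = 0.0175). Slit1 and Slit3 each had -0.11, with intervals of -0.33 to 0.11 and -0.30 to 0.08. Robo1 had 0.14 (-0.05 to 0.32) and Robo2 -0.11 (-0.28 to 0.05).

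Among the sham rats, replicate 1 stood apart in many members. This rat was the highest of the 10 in 14 members and the lowest in 10, or 43.6% of members, while it was at an extreme in 28.2% of all rows. Its granule cell marker sum (Prox1, C1ql2 and Trpc6) was 51.0 CPM, against 147 to 181 CPM in the other sham rats and 97.7, 111, 174, 136 and 68.7 CPM in TBI replicates 1 to 5. It was the lowest sham rat in Efnb3 (54.3 CPM against 96.5 to 110 CPM), Sema6d (33.7 against 53.2 to 56.7 CPM), Epha7 (41.1 against 65.9 to 82.1 CPM), Sema5a (98.6 against 161 to 208 CPM), Unc5d and Ntng1. It was the highest in Ephb6 (79.0 CPM against 45.0 to 53.2 CPM), Slit2 and Sema3g (7.30 against 4.87 to 5.10 CPM).

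**Figure D3:**
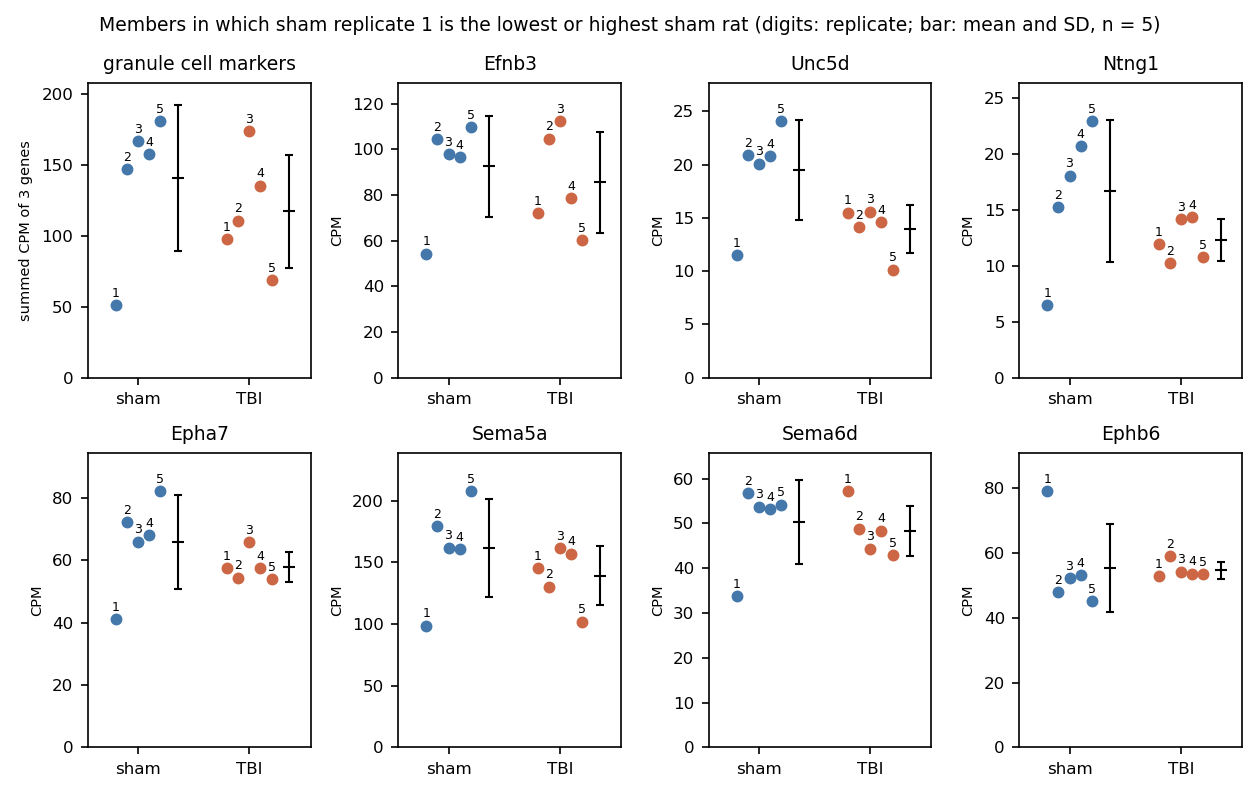
Summed CPM of 3 granule cell markers and CPM of 7 members (y axes, from 0) in each sham and TBI rat, with the digit of the replicate at each point and the mean and SD of 5 rats as a bar. Sham replicate 1 is the lowest sham rat in the marker sum and in Efnb3, Unc5d, Ntng1, Epha7, Sema5a and Sema6d, and the highest in Ephb6.

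Leaving this rat out changed which members were called. Without sham replicate 1 there were 9 members at an unadjusted p under 0.05 (16.4%, against 8.36% of all rows), of which 5 were among the 7. Ntng1 then had a log2 change of -0.64 (unadjusted p = 8.29e-05, adjusted p = 0.423, edgeR), Epha7 -0.32 (unadjusted p = 0.00139) and Sema5a -0.35 (unadjusted p = 0.00916). Plxna1 was newly called as well, in the higher direction. Sham replicate 1 was singled out after its values in these genes were seen. Without sham replicates 4 and 5 instead, Ntng1, Epha7 and Sema5a had -0.10, -0.04 and -0.07. There were then 5 members called (9.09%, against 5.60% of all rows), Sema4g, Dcc, Ephb1, Slit2 and Nrp2, of which 3 were among the 7. Without sham replicate 3 there were 12 (21.8%, against 11.4% of all rows), including all 7, so the share of all rows moved in the same direction. Sema4g, Dcc and Ephb1 were called in each of these 3 fits.

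**Figure D4:**
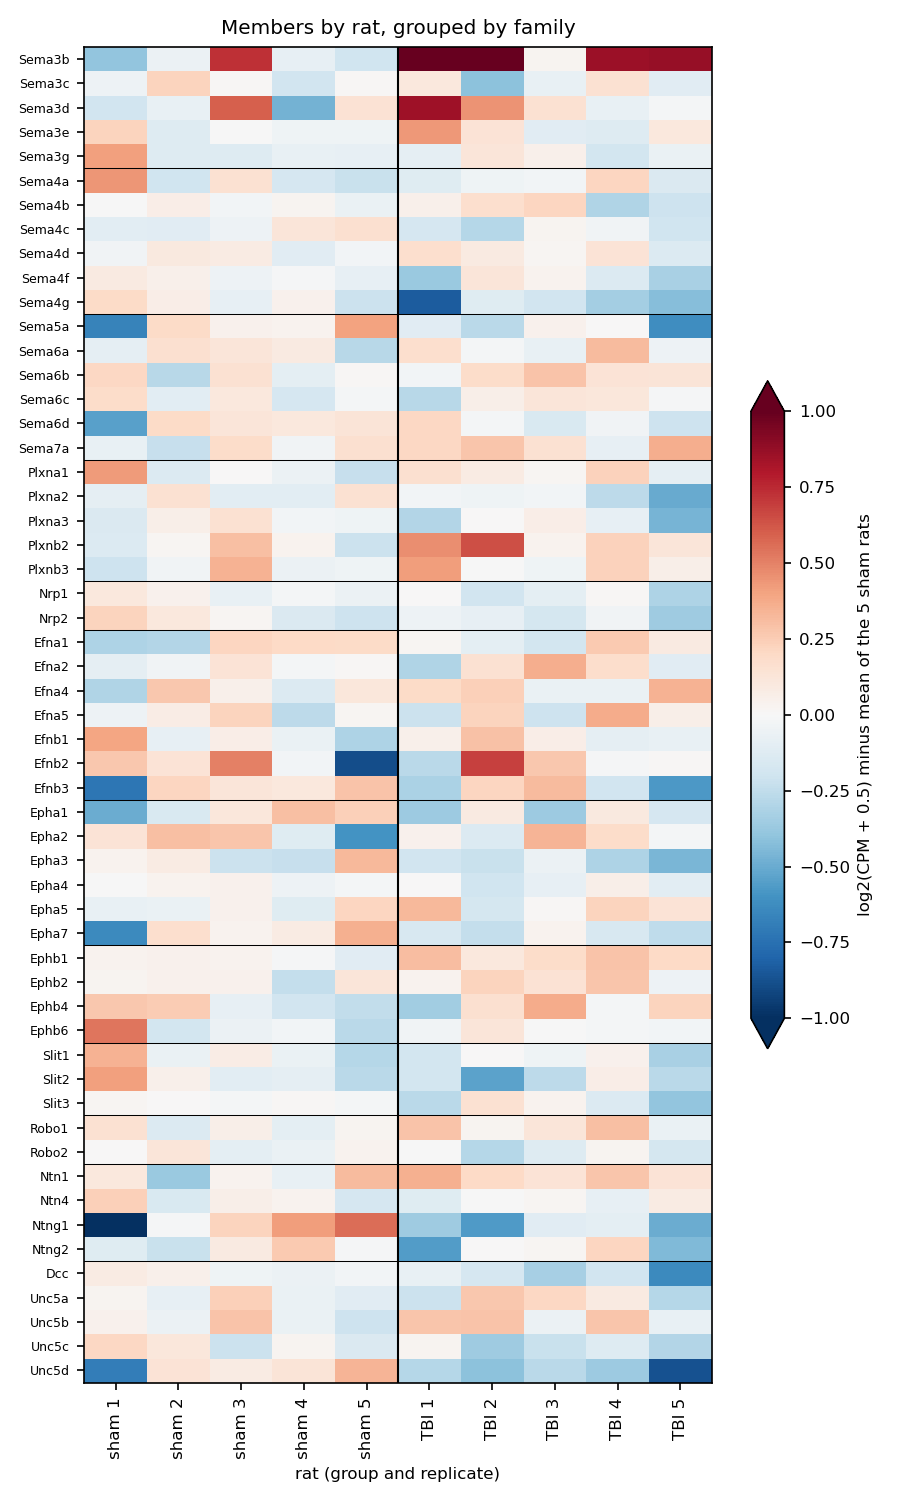
Log2(CPM + 0.5) of each member (y axis) in each rat (x axis) minus the mean of the 5 sham rats, by colour, with values beyond 1 in either direction drawn at the end of the scale. Families are separated by lines, and sham replicate 1 stands out from the other sham rats in both directions.

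Other genes of the guidance pathways were read from lists of signalling partners and effectors. Of 110 listed genes 99 were tested, and 9 (9.09%) had an unadjusted p under 0.05, 5 higher and 4 lower, against 7.89% of all rows. The smallest adjusted p among them was 0.485 (edgeR). In netrin signalling 2 of 15 were called, both lower. They were Lrrc4c, which encodes the netrin-G1 partner NGL-1 (-0.19, from 24.3 CPM ± 0.801 to 21.2 CPM ± 1.36, SD, n = 5), and Flrt3, whose product binds Unc5 receptors (-0.23). The groups did not overlap in Lrrc4c, as in 0.923% of all rows. In semaphorin and plexin signalling 2 of 23 were called, both higher. They were Rras, a small GTPase inactivated by plexins (0.27), and Met, the HGF receptor (1.60 with a standard error of 0.637, on only 1 to 86 reads a rat), the latter named after its values were seen.

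In Eph and ephrin signalling 1 of 18 was called, lower, and in Slit and Robo signalling 1 of 13, higher. Among genes of RGM, adhesion and chemokine guidance 1 of 17 was called, Rgma, the repulsive ligand of neogenin (0.30, from 42.6 CPM ± 5.29 to 52.7 CPM ± 6.28, SD, n = 5). Among cytoskeletal effectors 2 of 13 were called, Rhob (0.19) higher and Pak3 (-0.28) lower. The number called over all lists was 4 without sham replicates 4 and 5 (5.60% of all rows called), 5 without sham replicate 2 (5.18% of all rows) and 15 without sham replicate 3 (11.4% of all rows).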

How the data were processed

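Messenger RNA of 5 sham and 5 TBI rats was read as single reads of 36 bases. The methods give 3 controls for this model and the labels 5, and all 5 were used. The authors deposited raw counts per RefSeq RNA record. According to the methods, reads were aligned with BWA 0.5.9 to rn4 and counted over Ensembl 66 transcripts by a custom script, although the rows are RefSeq records, and this was not settled here. Use of strand was not stated, so overlapping transcripts are uncertain.

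Rows were named from RefSeq genes of GRCr8, used for names only (57.7% of tested rows). Rows with a total of at least 44 (30th percentile) were tested with edgeR 4.0.16 (quasi-likelihood, robust, TMM) in R 4.3.3, with Benjamini-Hochberg adjustment over all rows. Standard errors are the log2 change divided by the root of F. CPM use TMM-adjusted library sizes and are not corrected for transcript length, so levels are not compared between genes. Depth was 23425817 to 31671838 counts per rat, and counting error was largest in members under 300 reads.

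Every member was described in its family, and values of every rat were given for the 12 members with the smallest p, which include those that the study lists for this model (Sema3b, Unc5d). Others with values by rat were chosen after their values were seen. Other guidance genes and cell type markers came from lists. Members and lists were chosen with earlier results of these data known. Alternatives were likelihood ratio and exact tests, DESeq2 1.42.0, limma 3.58.1 (voom with sample weights), RLE and total count scaling, TMM outside ribosomal RNA, other filters and rows per symbol, a ribosomal RNA covariate, a surrogate variable from sva 3.50.0, and leaving out rats.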

Additional observations from a re-analysis of the deposited data

Results flagged for a closer look

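In 110 groups of 5 rats (55 members in sham and in TBI), 9 held a single rat whose distance to its nearest neighbour exceeded the 95% limit of Dixon's test, where chance gives 5.5. Members vary together, so these are not independent.

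Sham replicate 1 accounted for 4 of the 9, below the other sham rats in Efnb3 (54.3 CPM, others 96.5 to 110) and Sema6d (33.7 CPM, others 53.2 to 56.7) and above them in Ephb6 (79.0 CPM, others 45.0 to 53.2) and Sema3g (7.30 CPM, others 4.87 to 5.10). The same rat had the lowest granule cell marker sum. Sham replicate 3 lay above the other sham rats in Sema3b (16.2 CPM, others 7.18 to 9.16) and Plxnb3 (38.9 CPM, others 26.3 to 29.6). Sham replicate 4 lay below the others in Ephb2 (11.0 CPM, others 13.3 to 14.2). TBI replicate 2 lay above the others in Ephb6 (58.9 CPM, others 52.8 to 54.2), and TBI replicate 5 lay below them in Unc5d (10.1 CPM, others 14.1 to 15.6).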

How the results depend on the processing

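No paired analysis was possible because the labels number the rats singly across both groups, so that no sham rat shares a number with a TBI rat. The count of members at an unadjusted p under 0.05 was 7 and lay between 5 and 10 in the other fits except without sham replicate 3, with a range of 6 to 12 when each rat was left out. The share of all rows called moved as well, from 4.42% with the ribosomal covariate to 16.9% with total count scaling, against 7.89%. The count at an adjusted p of 0.05 was 0 throughout except with scaling by total counts, which called 1 member (Sema3b) and gave a member median of 0.46 beside 0.50 for all rows. With TMM, leaving out each rat moved the member median of -0.03 to between -0.07 and 0.03, and the adjusted count was 0 each time. With total count scaling the log2 changes of Sema4g, Dcc, Unc5d and Unc5c were 0.10, 0.21, 0.0673 and 0.28, and those of Epha3, Slit2 and Plxna2 were 0.23, 0.20 and 0.33. These are all below the median of all rows. Other guidance genes called numbered 9, and 2 when the ribosomal share entered as a covariate (4.42% of all rows), 3 when a surrogate variable did (5.09%), 16 on total count scaling (16.9%), 4 without sham replicates 4 and 5, and 5 to 15 when each rat was left out. The ribosomal share differed by -19.0 percentage points. The difference lay between -22.7 and -13.9 on leaving out each rat (lowest on dropping sham replicate 2, highest on dropping sham replicate 4). Its p was 0.00794 to 0.0238 on leaving out a sham rat and 0.0635 to 0.127 on leaving out a TBI rat (two-sided exact permutation). The causes were not tested. The low counts of 6 members limit what could be seen in them.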
